A study of Mus musculus with 6 samples.

Results

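ATP citrate lyase, the product of Acly, splits citrate in the cytosol into acetyl-CoA and oxaloacetate. Described here are Acly and 9 further genes of cytosolic acetyl-CoA supply and use (Acss1, Acss2, Slc25a1, Slc33a1, Crat, Idh1, Mdh1, Acaca and Acacb), together with 8 annotated features whose exons overlap theirs on the other strand. These 18 rows were taken, by gene name and by exon overlap, from 46078 rows of read counts. The libraries are of poly-A RNA from mouse heart muscle cells obtained by perfusion of the heart, in 2 groups, Acly-KD (genotype Acly-KD, n = 3) and control (genotype wildtype, n = 3). Acly was knocked down with the help of mice that carry Cas9 under Myh6, a gene of heart muscle cells, per the series' design text. Age, sex, strain, the guide, its delivery and whether control mice carry Cas9 are not given in these sources. No label states that each library is a separate animal, and p-values here speak only of spread among libraries, part or all of which may be technical. In bulk RNA, fewer cells of a type and less RNA per cell cannot be told apart.

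Acetyl-CoA is made mostly in mitochondria and cannot cross their inner membrane. In the citrate route, the carrier encoded by Slc25a1 exports citrate and ATP citrate lyase cleaves it, while Mdh1 and Idh1 act on the oxaloacetate and citrate carbon in the cytosol. Other routes are acetate, activated by Acss2 in cytosol and nucleus, and acetylcarnitine, made and used by the enzyme that Crat encodes. Cytosolic acetyl-CoA feeds acetyl-CoA carboxylase (Acaca and Acacb), cholesterol synthesis and protein acetylation, and Slc33a1 encodes its transporter into the endoplasmic reticulum. In the heart the product of Acacb, malonyl-CoA, is known mainly as a brake on fatty acid entry into mitochondria.

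Reads counted in gene features numbered 460222 to 799868 in the Acly-KD libraries and 271463 to 814765 in the control libraries, at most 3.07% of the uniquely aligned reads of any library. The counts look strand-swapped, and no source used here gives the strand setting. From 96.7% to 96.9% of the uniquely aligned reads of a library lay in no feature. Of the counts in nuclear features, those without opposite-strand exons held only 8.08%. Each gene was therefore looked at in its own row and in the rows of features opposite to it. Under the reading of mRNA, counts of a feature are read as those of the gene on its other strand. For Acss1 the own row held 113 reads over the 6 libraries and the row opposite 2090 reads. For Crat these totals were 152 and 3442 reads (all opposite rows summed), for Slc33a1 12 and 269 reads, and for Acss2 266 and 736 reads. Mdh1 was the exception among the 5 genes with such a feature, with 362 reads in its own row and 177 in the row opposite. Acly, Slc25a1, Idh1, Acaca and Acacb have no feature opposite to their exons, so nothing in the tables stands for their mRNA in that reading.

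The stretches that tie each gene to its opposite feature are short, and they decide which transcripts can be read. Their coding parts are given below from the GENCODE M21 transcripts (mm10), on the strand of the gene, with the start codon in capitals where the stretch begins with it. In Slc33a1 (minus strand of chromosome 3) the first 300 coding bases, chr3:63963891-63964190, lie within the 1136 bases of exon 1 shared with the antisense RNA Gm26850.
Slc33a1 exon 1: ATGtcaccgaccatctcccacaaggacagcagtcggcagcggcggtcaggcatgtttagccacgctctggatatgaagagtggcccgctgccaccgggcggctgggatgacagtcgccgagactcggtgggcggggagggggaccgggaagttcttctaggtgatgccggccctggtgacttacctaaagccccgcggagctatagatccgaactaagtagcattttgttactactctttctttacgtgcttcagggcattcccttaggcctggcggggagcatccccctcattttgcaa
In Acss2 (plus strand) the coding stretch shared with the antisense RNA Acss2os is chr2:155556799-155556911, in exon 10 of 18.
Acss2 exon 10: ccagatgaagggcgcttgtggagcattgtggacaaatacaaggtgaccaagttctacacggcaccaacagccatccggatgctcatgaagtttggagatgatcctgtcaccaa
In Acss1 (minus strand) the stretch shared with E130215H24Rik is chr2:150667885-150667957, in exon 1 of 14.
Acss1 exon 1: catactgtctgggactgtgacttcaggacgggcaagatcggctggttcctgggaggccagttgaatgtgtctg
In Crat (minus strand) the coding stretch shared with the antisense RNA Gm16323 is chr2:30415312-30415338, in exon 2 of 15.
Crat exon 2: ATGttagcctttgctgccagaaccgtg

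All 1136 bases that Slc33a1 shares with Gm26850 belong to its main coding transcript, 558 of them coding and 578 untranslated. For Acss2, 113 of the 335 bases shared with Acss2os belong to the main coding transcript, and 222 to other transcripts only. For Acss1 this holds for 73 of 113 bases, and for Crat for 27 of 411, the remaining 384 lying in exons of other Crat transcripts. The shared part was 35.4% of the exonic bases of Gm26850, 53.3% of Acss2os and 73.9% of Gm16323, and 113 of 939 bases for E130215H24Rik. Whether a read in such a row came from the gene named, from elsewhere in the feature or from another transcript of that strand cannot be told apart.

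**Figure D1:**
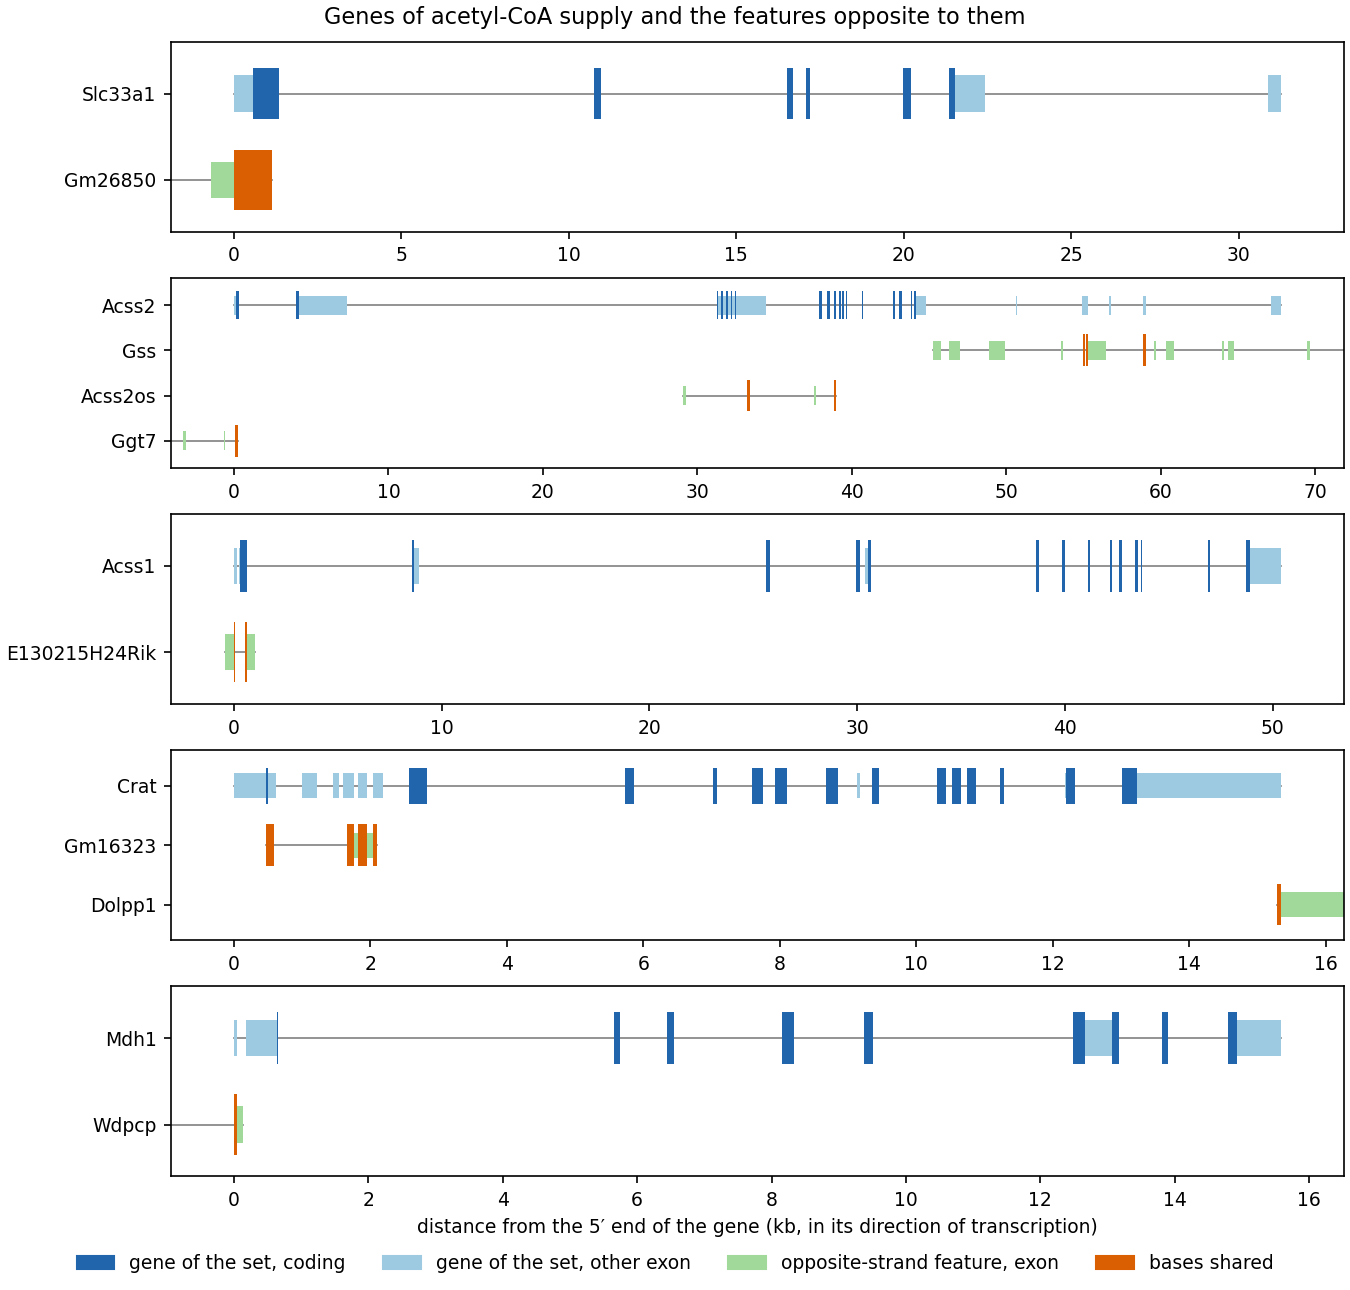
Exons of 5 genes (blue, coding parts dark) and of the features opposite to them (green), by distance in kb from each gene's 5′ end, with shared bases in orange. Lines that reach a panel's edge go on beyond it. Gm26850 covers the 5′ end of Slc33a1, and Wdpcp meets Mdh1 in 52 bases at its 5′ end.

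The knockdown target, Acly (chromosome 11, 100476353 to 100528000, minus strand), had 0 reads in each of the 3 Acly-KD libraries, against 1, 5 and 6 reads in controls 1, 2 and 3. In CPM (reads per 1e+06 normalized reads, with TMM scaling over the features tested) the control libraries stood at 3.64, 5.92 and 8.63 CPM. Every control library had a read and no Acly-KD library had one, but 3 reads, the limit that a count of 0 allows, come to 3.75 to 7.33 CPM in single Acly-KD libraries. With that floor of 3 reads over the Acly-KD group, the Acly row was at least 4.10-fold below the pooled control value of 6.61 CPM (log2 -2.04 or below). The control value is taken as exact here, so the counting error of its 12 reads is not in the bound. With 3 libraries a group, the two-sided exact permutation test of CPM reached its smallest possible value, p = 0.1. Acly fell below the filter on low counts and so has no edgeR test among the filtered features. With no filter, edgeR called 0 of the 9 own rows with reads, Acly among them. An unadjusted p under 0.05 was found for 1 of the 9, which was not Acss1, Acss2, Crat, Mdh1 or Acacb. Whether that row is the one of Acly is not given here.

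Since no exon lies opposite to Acly, its 12 reads are on the other strand from its mRNA if the counts are strand-swapped. Features of the same kind with 9 to 15 control reads numbered 831, and 11 of them (1.32%), Acly included, had 0 Acly-KD reads, while the median such feature had 9. Fewer than 3 Acly-KD reads, the floor used above, were found for 66 of the 831 (7.94%). Reads in all features without opposite-strand exons were set against the TMM-scaled library size of the mRNA reading. Per 100 scaled reads they came to 6.29, 8.95 and 13.6 in Acly-KD 1, 2 and 3. Controls 1, 2 and 3 had 12.1, 12.4 and 10.6. Acly-KD 1 and 2 were thus low in this class of reads and Acly-KD 3 was not. In Acly-KD 3 the floor of 3 reads comes to 3.75 CPM, above control 1 at 3.64 CPM. The part of this class difference in the Acly reads was not tested. Scaled to this class of reads the bound was -1.81. It was -1.41 without Acly-KD replicate 1, -1.23 without Acly-KD replicate 3 and -0.82 from Acly-KD 3 alone, where fewer libraries share the floor. Floors cover counting error in the Acly-KD group only, not that of the 12 control reads or the spread between libraries.

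The citrate carrier and the cytosolic enzymes beside it were hardly counted, apart from Mdh1. Slc25a1 (chromosome 16, 17925223 to 17928219) had 0 reads in all 6 libraries, which allows up to 7.33 CPM in a single Acly-KD library and up to 10.9 CPM in a control library. Idh1, the cytosolic NADP-dependent isocitrate dehydrogenase, had 1, 2 and 2 reads in Acly-KD and 0, 1 and 1 in control. Its CPM values did not overlap between groups (exact permutation p = 0.1, the smallest possible), but this rests on 5 reads against 2. No change in either gene was detectable at this depth. If the counts are strand-swapped, these rows and the floor say nothing of the mRNA of either gene.

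Mdh1 encodes the cytosolic malate dehydrogenase, which turns oxaloacetate into malate. Its own row held 19, 18 and 115 reads in Acly-KD 1, 2 and 3, against 43, 119 and 48 in controls 1, 2 and 3. In CPM these were 29.2, 44.0 and 144 in Acly-KD and 157, 141 and 69.0 in control. Acly-KD 1 and 2 lay below every control and Acly-KD 3 among them, with a log2 fold change of -0.67 (95% interval -2.18 to 0.83, adjusted p = 0.959 in edgeR). Without Acly-KD replicate 3 the value was -1.68 and passed the test (adjusted p = 0.0254 in edgeR, against a range up to 1.00 over all alternatives). In that fit 69 of 2998 features passed, 46 of them lower in Acly-KD, against 0 of 2952 with all libraries. From Acly-KD 3 alone the Mdh1 value was 0.28. The row opposite, Wdpcp, a gene of cilia and planar cell polarity, shares 52 bases with Mdh1, in none of which the main Mdh1 transcript has an exon. Its log2 fold change was 0.16 (95% interval -0.64 to 0.95). The rule of the mRNA reading would give the Mdh1 row to Wdpcp, so neither row is taken here as Mdh1 mRNA.

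The acetate-activating enzymes showed no difference beyond the spread between libraries. Acss2, the acetyl-CoA synthetase of cytosol and nucleus, is the direct alternative to ATP citrate lyase there. Read through Acss2os, it had 369, 328 and 303 CPM in Acly-KD, against 263, 383 and 286 CPM in control. All Acly-KD libraries lay within the control range, with means of 333 ± 33.0 and 311 ± 63.6 CPM (SD, n = 3 each). The fold was 1.05, with a 95% interval of 0.798 to 1.39 (adjusted p = 0.939 in edgeR), so a 2-fold difference lies outside the interval.

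The other rows at the Acss2 locus held fewer reads. Its own row had 98.3, 56.2 and 76.2 CPM in Acly-KD and 58.3, 73.4 and 57.5 CPM in control (log2 fold change 0.29, 95% interval -0.35 to 0.92). That row shares bases with Gss, Acss2os and Ggt7 on the other strand, and whose reads it holds cannot be told apart. Gss, which encodes glutathione synthetase, had 19 reads in Acly-KD and 11 in control and was not tested. Ggt7, of the gamma-glutamyltransferase family, overlaps exon 1 of Acss2 and had 8, 2 and 15 reads in Acly-KD, against 4, 27 and 19 in control. Its log2 fold change was -1.01, with a 95% interval of -2.16 to 0.13, which spans zero.

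Acss1 encodes the mitochondrial acetyl-CoA synthetase, which serves oxidation of acetate and not the cytosolic pool. Read through E130215H24Rik, it had 975, 903 and 1231 CPM in Acly-KD, against 1302, 1103 and 1085 CPM in control. Acly-KD 1 and 2 lay below every control and Acly-KD 3 between them. The fold was 0.900, with a 95% interval of 0.733 to 1.11 (adjusted p = 0.823 in edgeR).

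Crat encodes carnitine acetyltransferase, which moves acetyl groups between CoA and carnitine. Of the genes of the set it had the most reads, 611, 349 and 752 in the Gm16323 row in Acly-KD and 307, 670 and 650 in control. These gave 1706, 1591 and 1901 CPM in Acly-KD, all inside the control values of 2184, 1556 and 1772 CPM. The fold was 0.951, with a 95% interval of 0.782 to 1.16 (adjusted p = 0.929 in edgeR). Dolpp1, a dolichyl pyrophosphate phosphatase gene, meets the last exon of Crat in 59 untranslated bases, and its row had a log2 fold change of -0.29 (95% interval -1.18 to 0.60).

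Slc33a1 had the highest fold among the genes of the set read as mRNA, but did not pass the test over all genes. Its product carries acetyl-CoA from the cytosol into the endoplasmic reticulum, where proteins are acetylated. The Gm26850 row held 56, 34 and 82 reads in Acly-KD 1, 2 and 3, against 13, 37 and 47 in controls 1, 2 and 3. In CPM these were 156, 155 and 207 in Acly-KD, against 92.5, 85.9 and 128 in control. Every Acly-KD library lay above every control, and the gap between the nearest libraries was 155 against 128 CPM.

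The means of Slc33a1 were 173 ± 29.8 CPM in Acly-KD and 102 ± 22.7 CPM in control (SD, n = 3 each). The fold was 1.68, with a 95% interval of 1.13 to 2.50, and the log2 fold change 0.75 (SE 0.28). The unadjusted p was 0.0118 and the adjusted p 0.329 in edgeR, and an exact permutation test gave p = 0.1, the smallest possible. Of all 1453 genes in the mRNA reading, 14.7% had groups that did not overlap and 8.12% were higher in Acly-KD in this way. Left out singly, each library moved the log2 fold change within 0.59 to 0.99, with adjusted p from 0.312 to 0.881 in edgeR. Scaled to uniquely aligned reads it was 0.69. The own row of Slc33a1 held 2, 1 and 1 reads in Acly-KD and 1, 5 and 2 in control.

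**Figure D2:**
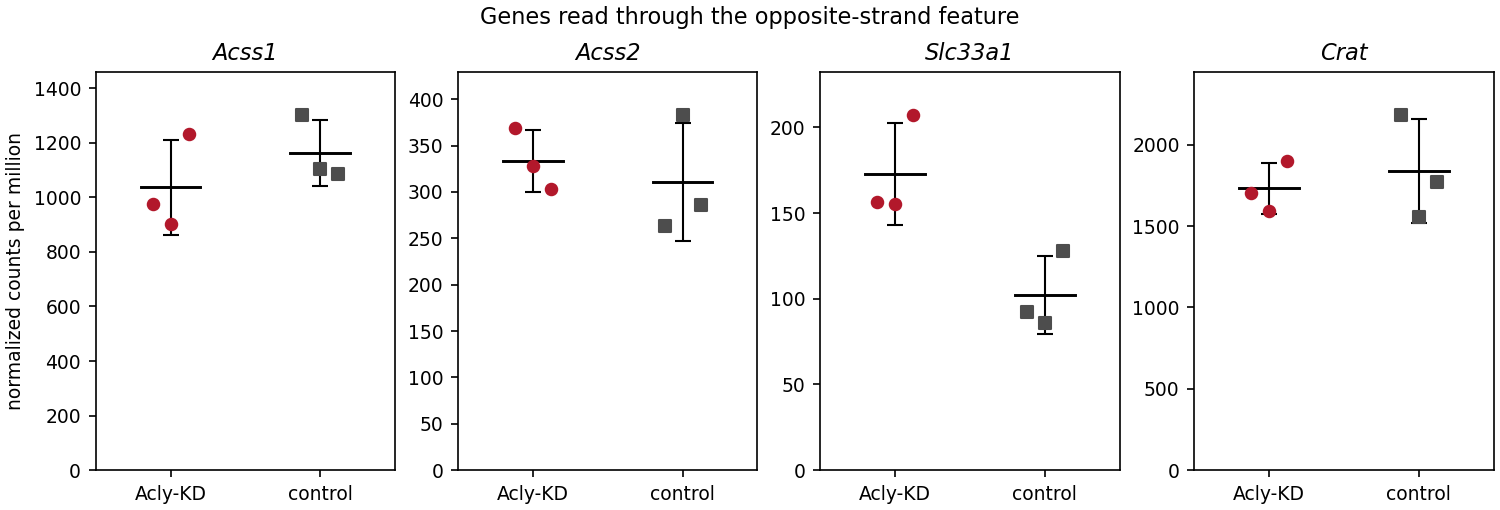
Normalized CPM of the 4 genes read through the feature opposite to them, by library, with mean and SD (n = 3 each). For Slc33a1 all Acly-KD libraries (155 to 207 CPM) stand above all controls (85.9 to 128 CPM), and for Acss1, Acss2 and Crat the groups overlap.

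The carboxylases, which use cytosolic acetyl-CoA to make malonyl-CoA, were read only in their own rows. Those rows do not show their mRNA if the counts are strand-swapped. Acaca had 1, 0 and 0 reads in Acly-KD and 1, 0 and 2 in control, too few to compare. Acacb, the form tied to the mitochondrial surface, had 4, 9 and 22 reads in Acly-KD and 14, 30 and 11 in control. In CPM these were 6.14, 22.0 and 27.5 in Acly-KD, against 51.0, 35.5 and 15.8 in control. Groups overlapped through Acly-KD 2 and 3 and control 3, with a log2 fold change of -0.79 (95% interval -2.01 to 0.42, adjusted p = 0.930 in edgeR).

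**Figure D3:**
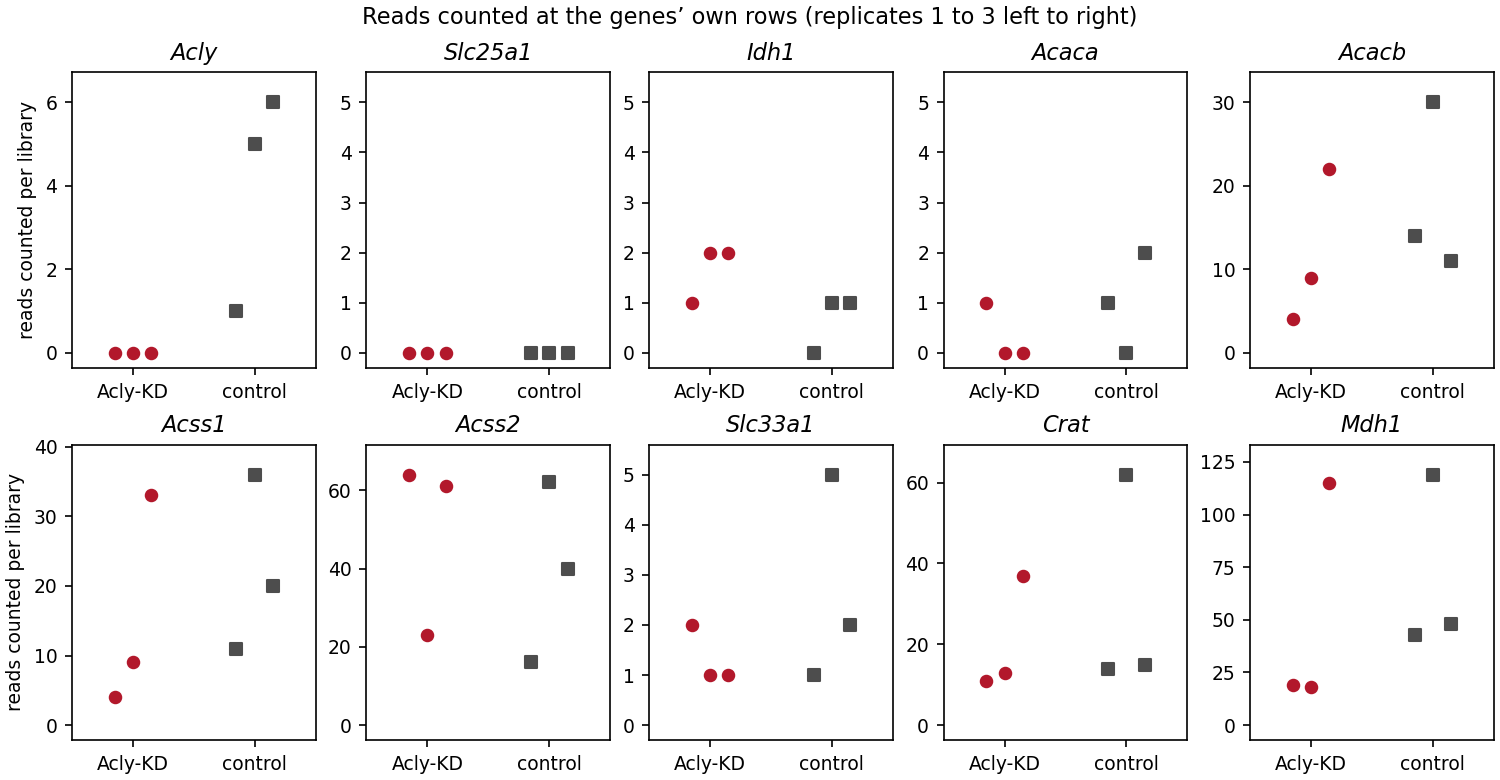
Reads counted in each gene's own row, by library (replicates 1 to 3 from left to right in each group). Acly has 0 reads in every Acly-KD library and 1 to 6 in the controls, Slc25a1 has 0 throughout, and for Acss1, Acacb and Mdh1 Acly-KD replicate 3 stands above replicates 1 and 2.

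In 4 of the 5 own rows tested (Acss1, Crat, Mdh1 and Acacb), Acly-KD 1 had the lowest CPM of its group and Acly-KD 3 the highest. Acss1 had 6.14, 22.0 and 41.2 CPM in its own row in Acly-KD 1, 2 and 3, against 40.1, 42.6 and 28.8 CPM in control. Crat had 16.9, 31.7 and 46.2 CPM in its own row in Acly-KD, against 51.0, 73.4 and 21.6 CPM in control. Per 100 reads of the opposite row, Acss1 had 1.15, 4.55 and 6.78 own-row reads in Acly-KD and 6.01, 7.58 and 5.03 in control. Acly-KD 1 was the lowest library in each of these, as it was in features without opposite-strand exons as a class. Myh6, the myosin heavy chain of heart muscle, moved alike in its own row, with 2297, 4735 and 8396 CPM in Acly-KD and 7992, 7020 and 5848 CPM in control. The part of this difference between libraries in the own-row values was not tested.

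**Figure D4:**
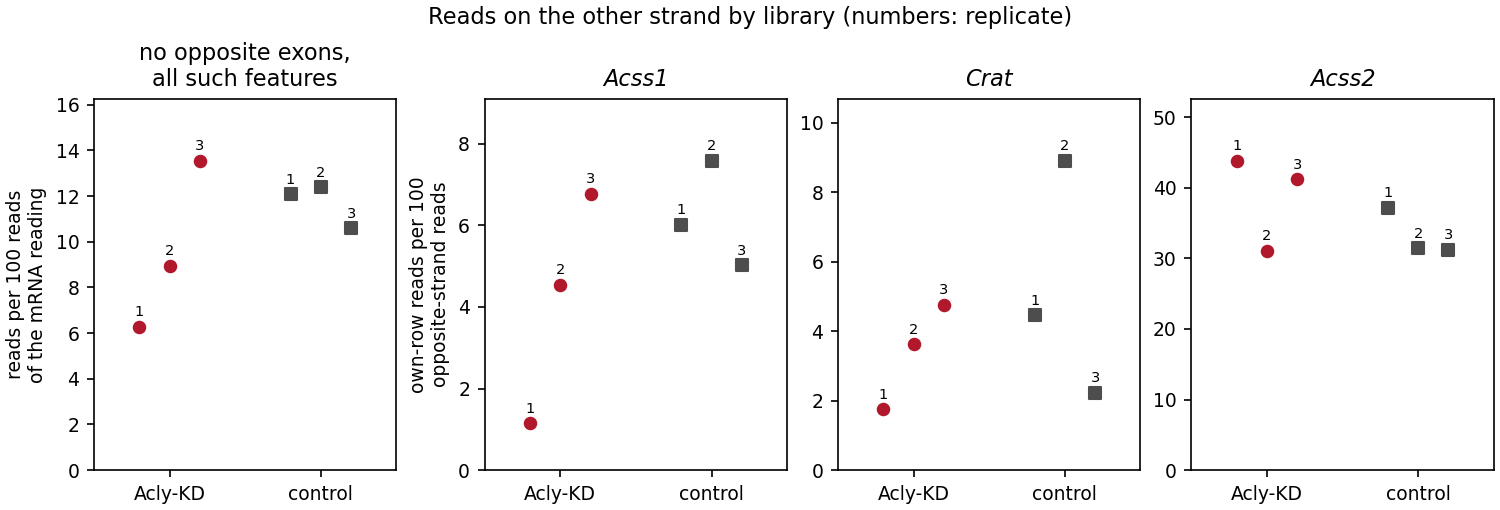
Left, reads in all features without opposite-strand exons per 100 TMM-scaled reads of the mRNA reading. Other panels, own-row reads per 100 opposite-row reads for Acss1, Crat and Acss2, with replicate numbers at the points. Acly-KD 1 is lowest in the left panel (6.29) and for Acss1 and Crat, and highest for Acss2 (43.8).

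Counted over the set, the quasi-likelihood test of edgeR, at a Benjamini-Hochberg adjusted p of 0.05, called 0 of the 5 own rows tested, 0 of the 7 opposite rows tested and 0 of the 4 genes in the mRNA reading. The background was 0% of 2952 features as deposited and 0.413% of 1453 genes in the mRNA reading, so no member stands out by these calls. At an unadjusted p under 0.05 there were 0 own rows, 1 opposite row and 1 gene read as mRNA, Gm26850 and Slc33a1, which are the same reads. Over all features 6.1% passed that level as deposited and 8.6% in the mRNA reading. Groups did not overlap for 0 of the 5 own rows and 1 of the 7 opposite rows, Gm26850, against 11.4% of all features (5.83% higher and 5.56% lower in Acly-KD). Log2 fold changes were above zero for 1 of 5 own rows and 2 of 4 genes read as mRNA, beside 45.6% of all features and 50.5% of all genes. DESeq2's test and limma-voom also called 0 in each. On counts simulated from these libraries, the mRNA reading recovered 62.7% of 2-fold and 22.4% of 1.5-fold changes, and the counts as deposited 32.8% and 7.46%. False calls were 8 and 1. Planted changes numbered 67 at 1.5-fold, 67 at 2-fold and 66 at 3-fold, over all tested rows and not at the read counts of this set. Where fewer genes change, the share recovered can be lower. Changes of 1.5-fold would mostly be missed.

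**Figure D5:**
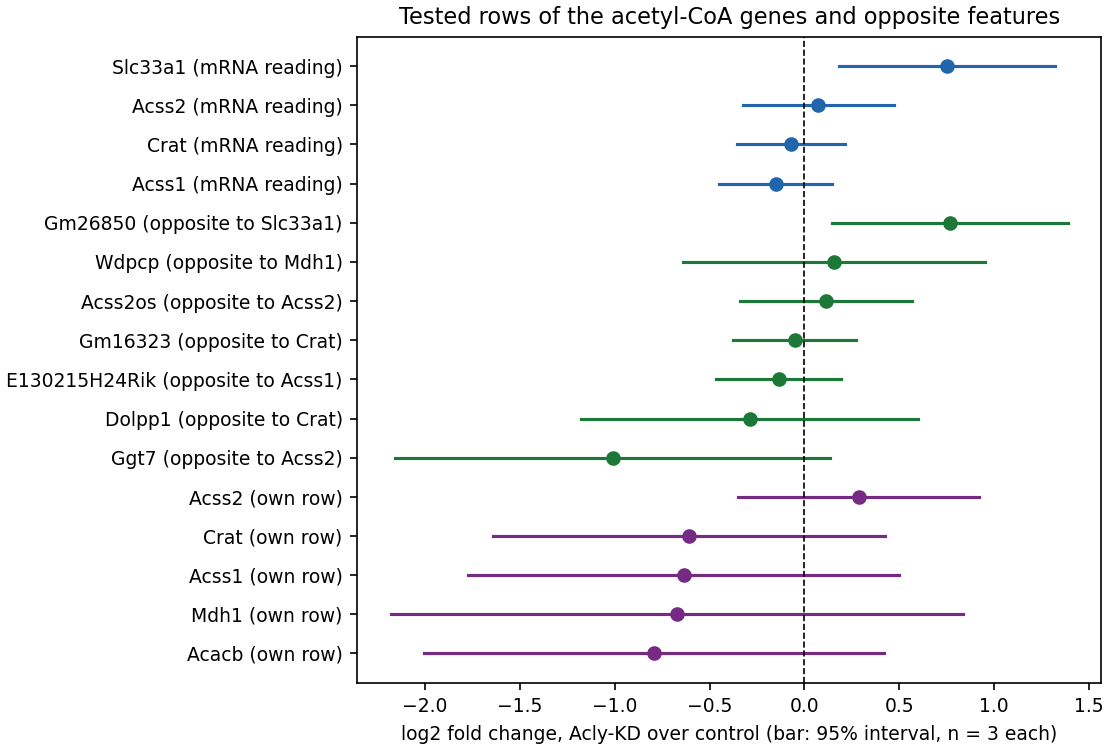
Log2 fold changes, Acly-KD over control, with 95% intervals for the 16 tested values, as mRNA (blue), opposite rows (green) and own rows (purple). The intervals of Slc33a1 (0.18 to 1.32) and Gm26850 (0.15 to 1.39), which are the same reads, lie above zero, and the others span it.

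Among wider lists around acetyl-CoA, no listed gene passed the test in either reading. In the mRNA reading, 3 of 12 genes that make mitochondrial acetyl-CoA and citrate were tested, with a median log2 fold change of 0.022 beside 0.0051 over all genes. Pdha1, a subunit of pyruvate dehydrogenase, had 24089, 25536 and 21988 CPM in Acly-KD and 23555, 20285 and 21612 CPM in control (95% interval of the log2 fold change -0.068 to 0.33). Mpc1, a subunit of the mitochondrial pyruvate carrier, had an interval of -0.17 to 0.21.

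Of the genes that turn cytosolic acetyl-CoA into fatty acids, 1 of 10 was tested as mRNA. This was Mid1ip1, whose product promotes acetyl-CoA carboxylase polymerization. Mid1ip1 had 1653, 1924 and 2543 CPM in Acly-KD and 2397, 3072 and 2451 CPM in control. Its log2 fold change was -0.37, with a 95% interval of -0.68 to -0.064 (adjusted p = 0.408 in edgeR). The groups overlapped, since Acly-KD 3 lay above control 1 and control 3. Of the other genes of this list 1 had values in that reading and was not tested, and 8 had no row to stand for their mRNA. None of the 10 passed the filter in its own row, where Scd1, Elovl1 and Elovl6 had 0 reads, which says nothing of their mRNA if the counts are strand-swapped.

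Regulators of ATP citrate lyase and the carboxylases had 3 of 14 genes tested as mRNA, with a median of -0.14. Prkag1, a subunit of AMP-activated protein kinase, had 3337, 3159 and 3190 CPM in Acly-KD, against 3585, 3636 and 3525 CPM in control. Its groups did not overlap, as for 6.61% of genes in the lower direction, and its log2 fold change was -0.15 (95% interval -0.38 to 0.082, adjusted p = 0.734 in edgeR). For Scap, the escort protein of the sterol-regulated factors SREBP, the interval was -0.50 to 0.22. Of the cholesterol list 0 of 13 genes were tested as mRNA, and Fdft1, squalene synthase, had a log2 fold change of 0.080 in its own row (95% interval -0.36 to 0.52).

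In the mRNA reading of the remaining lists, Acot8, a peroxisomal thioesterase, had an interval of -1.21 to 0.48 and Sirt3, a mitochondrial deacetylase, one of -0.79 to 1.15. G6pdx, which makes cytosolic NADPH, had -1.25 to 0.78. None of the 6 carnitine shuttle genes had values there, and of the 9 citrate and malate transport genes 1 had values and none was tested. In the counts as deposited, 4 of the 9 transport genes were tested, all in their own rows and all below zero. Their median was -0.36 beside -0.040 over all features, own and opposite rows alike, of which 45.6% were above zero. Own rows do not show mRNA levels if the counts are strand-swapped. The part of the low own-row values of Acly-KD 1 and 2 in these medians was not tested. Slc25a11, the oxoglutarate and malate carrier, had -0.14 (95% interval -0.62 to 0.34) and Slc16a1, a carrier of lactate and pyruvate, -0.57 (-1.37 to 0.22). For mitochondrial acetyl-CoA and citrate, 10 genes were tested in their own rows, 4 above and 6 below zero, with a median of -0.40 and a range of -1.09 to 0.53. Idh2, the mitochondrial NADP-dependent isocitrate dehydrogenase, had -0.52 (95% interval -2.18 to 1.14). Its row had 36.8, 78.1 and 205 CPM in Acly-KD 1, 2 and 3, against 215, 173 and 94.9 CPM in control. Akt1, a kinase that phosphorylates ATP citrate lyase, had -0.32 (95% interval -1.64 to 1.00), Nnt, the mitochondrial transhydrogenase, 0.14 (-1.08 to 1.37) and Acot8 0.13 (-0.84 to 1.09) in their own rows. The heart muscle markers, in their own rows, had a median of -0.43.

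Over the 6 libraries, the genes whose log2 CPM in the mRNA reading followed Slc33a1 most closely were Rbm48 (r = 0.984), Ube4b (r = 0.979) and Dapk3 (r = 0.970). For Crat they were Thumpd3 (0.972), Ube2w (0.963) and Glt8d2 (0.959). These are the highest of 1452 correlations over 6 libraries that share depth and group, and are given as a description. Among the genes of the set, Crat followed Acss1 (r = 0.797) and ran against Acss2 (r = -0.832), and Slc33a1 followed none of the other 3 (r from -0.269 to -0.00296). These values over 6 libraries are likewise a description, and none was tested.

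Markers of heart muscle and of other cell types could mostly be read only in their own rows, which do not show mRNA levels if the counts are strand-swapped. In the mRNA reading, 1 of 8 heart muscle markers had values, Myl2, a ventricular myosin light chain, with 2374, 1773 and 2245 CPM in Acly-KD and 2113, 2234 and 1587 CPM in control. Of the 4 atrial markers, Nppa, which encodes atrial natriuretic peptide, was the one with values in that reading. Nppa had 12036, 3514 and 5528 CPM there in Acly-KD and 2575, 8153 and 3503 CPM in control. Its groups overlapped, with a wide spread within each (log2 fold change 0.56, 95% interval -1.35 to 2.46). The endothelial, fibroblast, smooth muscle, immune, adipocyte and blood lists had no values in the mRNA reading, so the levels of those cell types are not shown by it.

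In their own rows all 8 heart muscle markers were tested, and all 8 had log2 fold changes below zero, with a median of -0.43. Over all features the median was -0.040, with 45.6% above zero. The low values were those of Acly-KD 1 and 2 for Myh6, at 2297 and 4735 CPM. Acly-KD 3 had 8396 CPM, above every control (5848 to 7992 CPM). Tnnt2 had 861, 1758 and 2970 CPM in Acly-KD, against 2989, 2541 and 2637 CPM in control. Their sum was 4015 to 14490 CPM in Acly-KD and 10634 to 13756 CPM in control. In the same rows the 5 endothelial markers summed to 17.1 to 72.5 CPM in Acly-KD and 27.3 to 56.8 CPM in control, and the 5 fibroblast markers to 16.9 to 26.9 CPM in Acly-KD and 12.9 to 24.8 CPM in control. Smooth muscle and pericyte markers (5) summed to 41.5 to 117 CPM in Acly-KD and 91.0 to 104 CPM in control, and immune markers (5, with Ptprc at 0) to 75.7 to 98.3 CPM in Acly-KD and 94.7 to 121 CPM in control. Atrial markers (4, with Sln at 0) came in their own rows to 13.8 to 22.0 CPM in Acly-KD and 18.2 to 37.9 CPM in control, and blood genes (4) to 6.14 to 17.1 CPM in Acly-KD and 11.5 to 29.6 CPM in control. These own-row ranges overlap between groups in every list, and their part in the results was not tested. Of the adipocyte markers, which bear on genes of fatty acid synthesis, Adipoq, Plin1, Cidec and Lep had 0 own-row reads in every library. The fifth, Fabp4, which capillary endothelium also expresses, had 23.0, 24.4 and 159 CPM in Acly-KD and 98.3, 89.9 and 66.1 CPM in control.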

How the data were processed

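The deposited values are whole-number read counts per gene identifier, made by the authors, one file per library, with no normalization. The submitters' processing notes list the build mm10 and, with no versions, the tools TopHat2, HTSeq, DESeq2, SAMtools and FastQC. Libraries came from a kit that marks strand, with poly-A selection, per the labels' protocols. Rows that name no gene held 97.4% to 97.7% of the counts of a library. They stayed out of the tests and served only to total the uniquely aligned reads. Exon overlaps were computed from GENCODE M21, which held 45143 of 46078 identifiers. The main transcript of a gene is its coding transcript with a consensus (CCDS) entry and the longest coding part. In the mRNA reading, counts of a nuclear feature went to a gene that held 80% or more of the bases it overlaps on the other strand, 50 bases or more, provided that the gene's own row was lower or missing.

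The test was the robust quasi-likelihood one of edgeR 4.0.16 (R 4.3.3), after TMM scaling and filterByExpr at 10 counts, with p-values adjusted over the whole table. Intervals at 95% rest on a standard error obtained by dividing the absolute log2 fold change by the square root of F. Every gene of the set and every opposite feature is named, with up to 4 called genes of each wider list or otherwise the 2 most abundant tested ones, and the 3 genes most correlated with Slc33a1 and with the most abundant gene of the set. Genes and lists were chosen with earlier results of these data known. Alternatives were DESeq2 1.42.0, limma-voom (limma 3.58.1), other scalings, filters and overlap rules, a replicate block and libraries left out. The steps were tested on simulated counts. Libraries of 1 group differed beyond sampling noise (chi-square over its degrees of freedom, 3.43 to 10.1). One gene that the rule names is not reported here.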

Additional observations from a re-analysis of the deposited data

How the results depend on the processing

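No alternative called a gene of the set in the mRNA reading or an opposite feature. Called once was 1 own row, Mdh1 without Acly-KD replicate 3, a fit that called 69 of 2998 features (counts of own rows called with a library left out were 0 to 1). Over the whole table, 0 features were called as deposited and 3 higher and 3 lower genes in the mRNA reading. These totals became 3 and 14 with limma-voom, 3 and 30 with no filter, and 36 and 2 with Acly-KD 1 and 2 left out. With a library left out they ran from 0 to 69 and from 1 to 20. The mRNA total was 0 with a stricter filter (98 genes at an unadjusted p under 0.05) and 2 on uniquely aligned reads, and 4 higher and 2 lower on library totals. Scaled to features without opposite-strand exons, 2 features were called. That scale moved the median of all features to 0.31, and uniquely aligned reads to -0.14. The replicate block gave 12 genes in the mRNA reading and 0 features as deposited, and changed no call in the set. Same-numbered libraries deviated together in no pair (r = -0.064, -0.018 and -0.180 as deposited). These are deviations from group means of 3 libraries, so they cannot exclude that the numbers pair the libraries. The bound for Acly ran from -2.16 to -1.23 with a library left out and was -0.82 with Acly-KD 1 and 2 left out. Of 255 fold changes under alternatives, 18 changed sign, none of them called, and the cause was not tested. With Acly-KD 1 and 2 left out these were Acss1 (0.16 own row, 0.068 mRNA), Mdh1 (0.28), E130215H24Rik (0.027), Acss2os (-0.13), Acss2 mRNA (-0.093) and Crat mRNA (0.036). Gm16323 was 0.054 with no filter and 0.32 on the scale of features without opposite-strand exons, where E130215H24Rik was 0.21. Acss2 mRNA was -0.0062 on uniquely aligned reads. With single libraries left out, ranges that crossed zero were -0.012 to 0.27 (Acss2 mRNA), -0.0077 to 0.33 (Acss2os), -0.18 to 0.059 (Crat mRNA), -0.13 to 0.13 (Gm16323) and -0.027 to 0.55 (Wdpcp). Alternatives on unique reads, on features without opposite-strand exons and without Acly-KD 1 and 2 were chosen after seeing the data, and the last sets 1 library, assumed to vary like the others, against 3.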
